A study of Mus musculus with 6 samples.

Results

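The 43 genes described here encode the machinery that copies DNA in S phase, together with the factors that commit a cell to it. They were listed by name as replication genes. The list was drawn up with earlier results of these data known, so counts over it are descriptions. All 43 were among the 20163 genes measured. A gene with several probe sets was represented by the one with the highest mean over the 6 arrays. This choice was needed for Pcna, Slbp and Tk1, which have 2 probe sets each, whereas the other 40 genes have 1. Every one of the 43 lay at or above the median log2 level of all genes (6.41), with means over the 6 arrays of 6.48 to 11.69.

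The arrays measured total RNA of muscle stem cells, which came from adult C57BL/6J females (age 6 to 8 weeks). Treated cells received BMP6 (bone morphogenetic protein 6) at 100 ng/ml for 1 h, on 3 arrays, and the controls received only the vehicle in which BMPs were dissolved, on the other 3 arrays. All cells of both groups had first been expanded on Matrigel for 2 days and then held for 6 h without serum in 200 ng/ml ALK3-Fc, a soluble BMP receptor that binds BMPs of the medium. The labels call the arrays biological replicates 1, 2 and 3 of each treatment and name mice 1, 2 and 3 as the sources of the BMP6 samples, but mice 1, 2 and 2 as those of the vehicle samples, so vehicle replicates 2 and 3 may share an animal and p-values then measure only the spread between these samples. The array names carry 1 shared code for the BMP6 and the vehicle array of each number, the third included.

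The 6 arrays were alike in scale, with medians of 6.38 to 6.45 and pairwise correlations over genes of 0.994 to 0.997. Of 12 muscle stem cell markers, 9 lay at or above the median level, against 1 of 10 endothelial, 2 of 12 immune, 4 of 10 pericyte, 4 of 10 Schwann cell and 6 of 12 fibro-adipogenic markers. Of 24 listed BMP targets, 9 were called higher in BMP6 (limma, Benjamini-Hochberg adjusted p under 0.05 over all genes), against 0.0843% of all genes. This list too was chosen with earlier results of these data known. The first 3 by p were Smad7 (difference 1.72 ± 0.08 SE on the log2 scale), Id1 (1.58 ± 0.09) and Skil (1.47 ± 0.08). Replicate number called 0 of the 24, with the lowest F p for Grem1 (0.000322) and Tcf21 (0.00165). Id1, an inhibitor of myogenic transcription factors, read 11.29, 11.27 and 11.35 in BMP6 cells, against 9.64, 9.61 and 9.92 in vehicle cells.

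Replication begins when the origin recognition complex, Cdc6 and Cdt1 load a ring helicase made of the proteins Mcm2 to Mcm7 onto DNA. Cdc45 and the GINS complex then switch the helicase on, polymerases copy the strands with the sliding clamp PCNA, and ribonucleotide reductase and thymidylate enzymes supply the building blocks. Many of these genes are transcribed together before S phase by E2F factors, which the retinoblastoma protein restrains until cyclin E and Cdk2 act. Activated muscle stem cells divide as myoblasts, and leave the cell cycle when they differentiate.

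Promoters are shown here because many of these genes share a letter pattern that the choice of genes did not use. RefSeq promoter windows (GRCm38.p6, 250 bases before to 50 after the start) existed in the table used for 36 of the 43 genes. Ccne2, Gins1, Gins2, Gins4, Mcm4, Pole and Rfc2 were not matched. The 200 bases just before the start are printed 5′ to 3′ on the gene's strand for Mcm6 (chr1:128359706-128359905, minus strand), Mcm5 (chr8:75109309-75109508, plus strand) and Cdc6 (chr11:98907951-98908150, plus strand). Capitals mark matches to the E2F letters TTTGGCGC, TTTCGCGC, TTTCCCGC or TTTGCCGC on either strand.
Mcm6: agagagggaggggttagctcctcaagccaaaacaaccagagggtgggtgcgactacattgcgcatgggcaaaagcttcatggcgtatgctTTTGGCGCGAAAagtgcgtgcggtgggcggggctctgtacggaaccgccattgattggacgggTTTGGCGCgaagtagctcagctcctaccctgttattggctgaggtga
Mcm5: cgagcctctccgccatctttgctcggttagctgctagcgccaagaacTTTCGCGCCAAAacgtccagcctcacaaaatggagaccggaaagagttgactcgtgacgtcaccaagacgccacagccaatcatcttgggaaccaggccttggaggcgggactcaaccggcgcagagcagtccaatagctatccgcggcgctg
Cdc6: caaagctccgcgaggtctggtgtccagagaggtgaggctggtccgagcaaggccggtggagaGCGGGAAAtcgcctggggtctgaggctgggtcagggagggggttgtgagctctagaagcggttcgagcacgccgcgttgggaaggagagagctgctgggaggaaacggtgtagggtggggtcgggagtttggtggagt
In Mcm6 a pair of overlapping matches on opposite strands forms the run TTTGGCGCGAAA, starting at position -110 from the start site, and a further match begins at -47. In Mcm5 the run TTTCGCGCCAAA at -153 is the reverse complement of the Mcm6 run over all 12 bases. Cdc6 holds 1 match, at -138, on the opposite strand.

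These E2F letters were found in at least 1 window of 15 of the 36 replication genes (41.7%), of 3.75% of the 14393 measured genes with a window and of 2.6% of all 27025 genes in the table. Counted by window, since some genes have several, the shares were 15 of 42 (35.7%) for replication genes and 2.26% for all 32851 windows. Among the MCM genes, Mcm3, Mcm5, Mcm6 and Mcm7 had a match and Mcm2 had none. A list of other replication factors held it in 12 of 38 genes (31.6%), whereas 1 of 33 mitosis genes (3.03%) and 1 of 26 myogenic differentiation genes (3.85%) did. The letters TTTGAA of the cell cycle homology region (CHR), known from late cell cycle genes, lay in 13.9% of replication genes, 69.7% of mitosis genes, 16% of measured genes and 20.2% of all genes in the table. The NF-Y letters CCAAT lay in 63.9% of replication genes, 75.8% of mitosis genes, 41.8% of measured genes and 41.1% of all genes in the table. The GC-rich SMAD letters GGCGCC, which can overlap an E2F match, lay in 19.4% of replication genes, 20.2% of measured genes and 13.4% of all genes in the table. A match is a run of letters in a window, and binding was not measured.

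**Figure D1:**
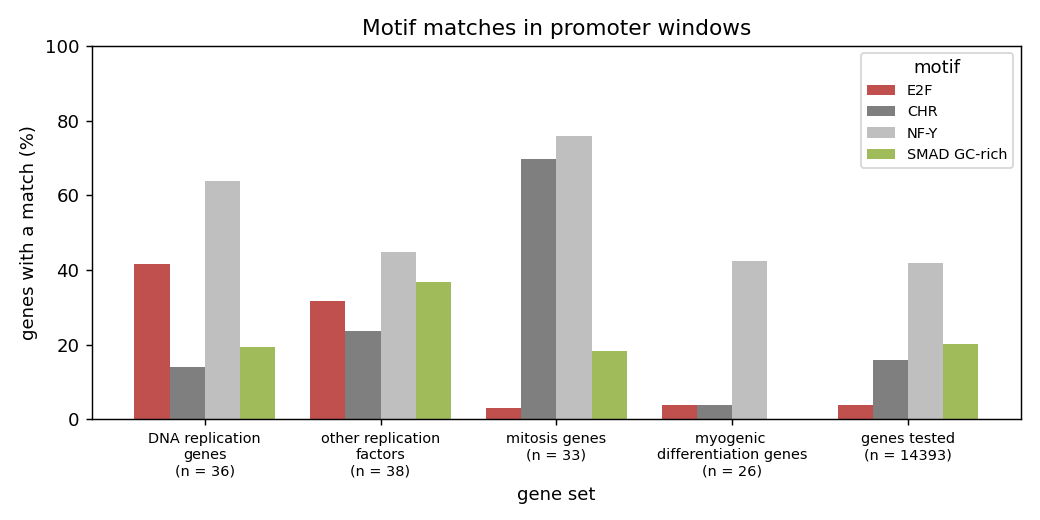
Share of genes (%, vertical axis from 0 to 100) whose promoter window holds each of 4 motifs (colours), for 5 gene sets along the horizontal axis with the number of genes that have a window. The E2F bar stands at 41.7% in replication genes, against 3.03% in mitosis genes and 3.75% in measured genes, and the CHR bar at 69.7% in mitosis genes.

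The first comparison asked whether 1 h of BMP6 moved the replication genes. No member was called: 0 of 43 passed an adjusted p of 0.05 in limma's moderated test, where 0.0843% of all genes passed higher in BMP6 (17 genes) and 0% lower. None reached an unadjusted p under 0.05 either, against 3.17% of all genes, and the smallest unadjusted p was 0.0812, for Rfc5. With replicate number as a block, 0 of 43 were called, against 0.144% of all genes (29 genes), and the smallest adjusted p among members was 0.910. Differences, as BMP6 minus vehicle on the log2 scale, ran from -0.09 (Rfc3) to 0.15 (Ccne2). In the fit without the block, their 95% intervals together spanned folds of 0.812 to 1.39. A 2-fold change in either direction thus lies outside the interval of every one of the 43 genes. All intervals given below come from that fit, so they include the spread between replicate numbers. With the block the standard error was smaller in 39 of the 43.

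The small differences were mostly above 0. The estimate was positive in 40 of 43 genes, where 49.3% of all genes and 56.4% of the genes at or above the median level were positive, and its median was 0.05, against 0.01 for the genes at or above the median level. Without the third BMP6 array the count was 21 of 43 and the median -3.17e-05. The median was 0.11 without the first BMP6 array, 0.12 without the third vehicle array, and 0.02 and 0.03 without the first and the second vehicle array. BMP6 was above vehicle for 22 members within replicate number 1, 38 within number 2 and 29 within number 3, where 48.5%, 52.6% and 49.8% of all genes and 47.4%, 69.8% and 47.1% of the genes at or above the median level were. The differences had member medians of 0.01, 0.11 and 0.04 in numbers 1, 2 and 3. In number 2 most genes at or above the median level were also higher with BMP6, with a median of 0.06, against 0.11 for the members.

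BMP6 was above vehicle within all 3 numbers for 12 members (13.3% of all genes) and below it for 1, Rfc3 (12.3% of all genes). Of the 10082 genes at or above the median level, 1775 were above and 947 below in this way. The groups did not overlap for E2f1 and Rfc5, both with BMP6 above (3.84% of all genes, 485 of those 10082). With BMP6 below this held for no member (3.86% of all genes, 266 of those 10082).

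The Mcm2 to Mcm7 helicase subunits stayed close to vehicle, with 6 of 6 estimates positive and none above 0.06. Mcm2 read 9.96, 10.15 and 10.29 in BMP6 replicates 1, 2 and 3, against 9.94, 10.01 and 10.27 in vehicle replicates 1, 2 and 3, a log2 difference of 0.06 with a 95% interval of -0.19 to 0.31. Mcm3 read 9.64, 9.84 and 9.96 with BMP6, against 9.59, 9.72 and 9.97 with vehicle, a difference of 0.05 (-0.21 to 0.31). In both genes the treatment groups overlapped almost wholly, and each treatment was lowest in replicate 1 and highest in replicate 3. For Mcm6, with its 3 E2F matches, the BMP6 arrays gave 9.75, 9.87 and 10.06 and the vehicle arrays 9.76, 9.77 and 10.02, a difference of 0.04 (-0.19 to 0.28). Mcm4 had 9.41, 9.44 and 9.62 with BMP6, against 9.43, 9.34 and 9.63 with vehicle, a difference of 0.02 (-0.19 to 0.24). Here too the third array of each treatment was the highest and the groups overlapped. Mcm5 gave 9.81, 9.87 and 9.92 with BMP6, against 9.75, 9.86 and 9.89 with vehicle, a difference of 0.03 (-0.14 to 0.20). Mcm7 gave 10.15, 10.23 and 10.24 with BMP6, against 10.14, 10.18 and 10.26 with vehicle, a difference of 0.02 (-0.15 to 0.18). These last subunits varied least between arrays, and their groups overlapped as well.

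The licensing factors that load the helicase lay between 0.04 and 0.12 above vehicle in 4 of 4 cases, none called. Cdc6, an ATPase of the loading step, read 7.77, 7.95 and 8.00 in BMP6 cells, against 7.80, 7.60 and 7.96 in vehicle cells, a difference of 0.11 (-0.12 to 0.35). The second vehicle array was the lowest of the 6, and the within-number differences were -0.04, 0.34 and 0.04, with overlapping groups. Cdt1, the partner of Cdc6, read 9.94, 9.93 and 10.06 with BMP6, against 9.79, 9.80 and 9.98 with vehicle, a difference of 0.12 (-0.07 to 0.30). It was higher with BMP6 within each number, by 0.15, 0.12 and 0.08, yet the groups overlapped. The origin recognition subunits Orc1 and Orc6 differed by 0.07 and 0.04.

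Among the 6 helicase activators (Cdc45, 4 GINS subunits and Mcm10) the differences ran from -0.06 to 0.08. The lowest was Gins4, a GINS subunit, with 8.38, 8.51 and 8.49 in BMP6 cells, against 8.56, 8.45 and 8.56 in vehicle cells, a difference of -0.06 (-0.23 to 0.11). Its within-number differences had mixed signs, at -0.18, 0.06 and -0.06. The polymerase and primase genes Pola1, Prim1, Pole and Pold1 differed by 0.03 to 0.08, none called.

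The clamp and its loader held both the most negative member and one of the most positive. Pcna, the sliding clamp, read 11.38, 11.61 and 11.71 with BMP6, against 11.26, 11.51 and 11.63 with vehicle, a difference of 0.10 (-0.16 to 0.36). Its excess over vehicle had a similar size in each number, 0.12, 0.10 and 0.08, but was smaller than the step of 0.24 from number 1 to number 2, so the groups overlapped. A second probe set carrying the Pcna symbol gave a difference of 0.04, and which transcripts each one reads was not examined. Rfc5, a subunit of the clamp loader, read 9.57, 9.56 and 9.57 with BMP6, against 9.49, 9.42 and 9.37 with vehicle, a difference of 0.14 (-0.02 to 0.30). Every BMP6 array lay above every vehicle array, and the adjusted p was 1. Rfc3, another loader subunit, went the other way, with 7.79, 7.82 and 8.03 in BMP6 cells, against 7.95, 7.88 and 8.09 in vehicle cells, a difference of -0.09 (-0.30 to 0.11). It was below vehicle within each number and the groups overlapped.

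Lagging-strand and single-strand factors showed little. Fen1, a flap nuclease, and Lig1, the ligase that seals Okazaki fragments, differed by 0.09 and 0.10, and Rpa1, which coats single strands, by 0.04. Rpa2, a second subunit of that complex, read 8.64, 8.65 and 8.73 with BMP6, against 8.68, 8.62 and 8.73 with vehicle, a difference of -0.0018 (-0.16 to 0.16). Its groups coincided.

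Of the 5 nucleotide supply genes, all had estimates at or above 0, up to 0.10. Rrm2, the small subunit of ribonucleotide reductase, read 11.58, 11.76 and 11.87 in BMP6 cells, against 11.50, 11.64 and 11.79 in vehicle cells, a difference of 0.10 (-0.13 to 0.32). It was above vehicle by 0.08, 0.13 and 0.08 within the numbers, with overlapping groups. Tk1, the thymidine kinase of cycling cells, read 8.53, 8.96 and 9.06 with BMP6, against 8.61, 8.85 and 8.93 with vehicle, a difference of 0.05 (-0.26 to 0.36). The first array of each treatment was clearly the lowest. Tyms, thymidylate synthase, read 8.44, 8.50 and 8.77 with BMP6, against 8.61, 8.65 and 8.46 with vehicle, a difference of 0.00 (-0.23 to 0.23). Its within-number differences cancelled, at -0.17, -0.15 and 0.31.

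The chromatin genes of S phase lay 0.03 to 0.11 above vehicle, none called. Chaf1b, a subunit of the assembly factor CAF-1, read 7.88, 8.04 and 8.28 with BMP6, against 7.86, 7.90 and 8.12 with vehicle, a difference of 0.11 (-0.15 to 0.36). Uhrf1, which helps to copy DNA methylation, read 9.20, 9.39 and 9.45 with BMP6, against 9.18, 9.22 and 9.34 with vehicle, a difference of 0.10 (-0.10 to 0.29). Both were above vehicle within each number and overlapped across numbers. Slbp, which binds the stem-loop of histone mRNAs, read 8.77, 8.91 and 9.00 with BMP6, against 8.90, 8.53 and 9.05 with vehicle, a difference of 0.07 (-0.21 to 0.36). The second vehicle array was the lowest, and the within-number differences were -0.12, 0.38 and -0.05.

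The S phase entry genes included the highest estimates. E2f1, an activating E2F, read 8.42, 8.42 and 8.64 in BMP6 cells, against 8.22, 8.40 and 8.41 in vehicle cells, a difference of 0.15 (-0.06 to 0.35). The groups did not overlap, but only just, at 8.42 for the lowest BMP6 array and 8.41 for the highest vehicle array, and the adjusted p was 1. Ccne2, a cyclin E, read 7.70, 7.93 and 8.04 with BMP6, against 7.60, 7.54 and 8.08 with vehicle, a difference of 0.15 (-0.17 to 0.47). Ccne1, the other cyclin E, read 8.50, 8.54 and 8.68 with BMP6, against 8.38, 8.49 and 8.68 with vehicle, a difference of 0.06 (-0.15 to 0.27). Both cyclins overlapped between treatments, and the third vehicle array was as high as the third BMP6 array or higher. E2f2, a second activating E2F, read 8.09, 7.91 and 7.78 with BMP6, against 8.15, 7.79 and 7.76 with vehicle, a difference of 0.02 (-0.24 to 0.29). Both treatments were highest in replicate 1, and the groups overlapped. Cdk2, the kinase partner of cyclin E, differed by 0.06.

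**Figure D2:**
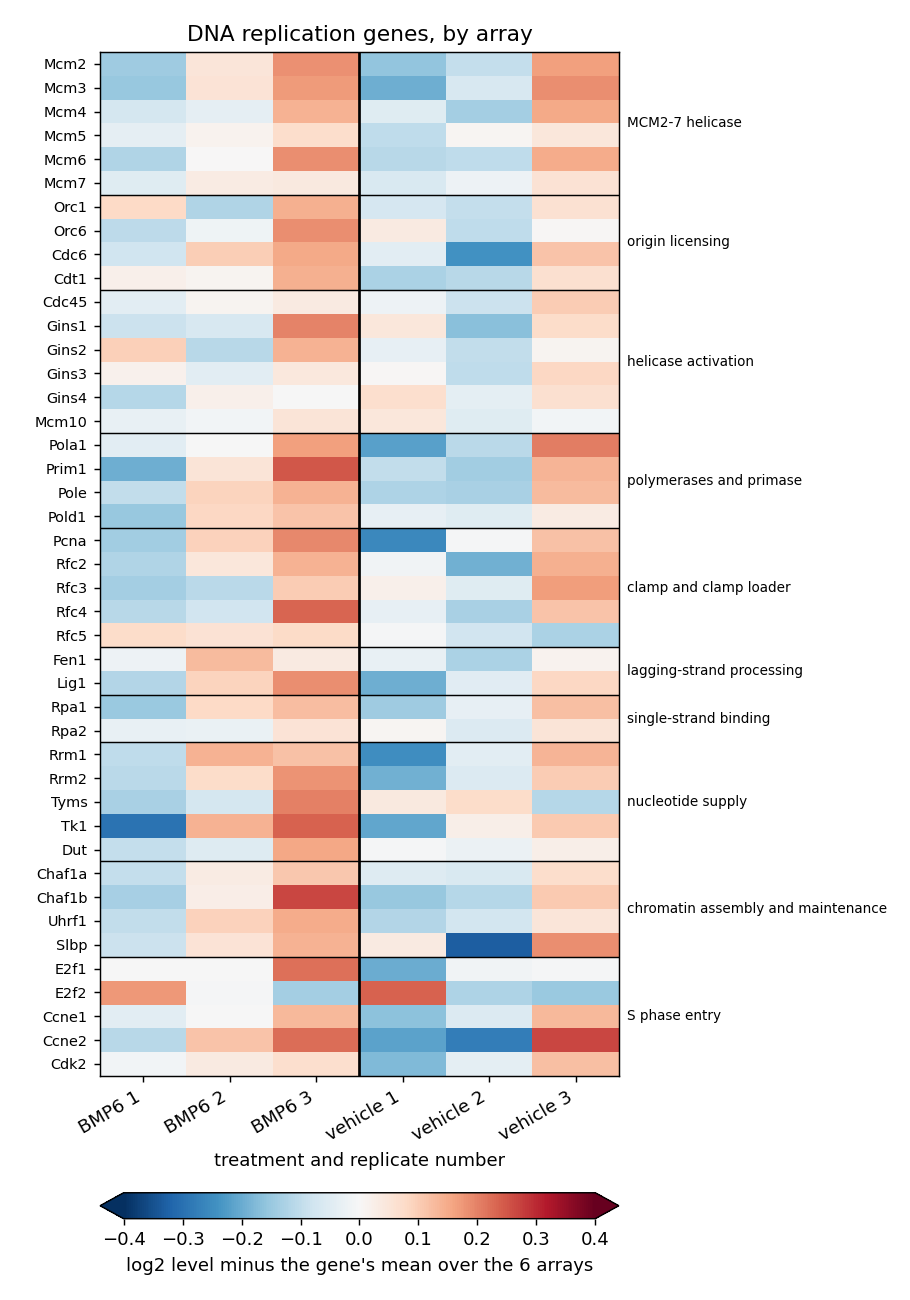
Log2 level of each of the 43 replication genes (rows, ordered by role) on each of the 6 arrays (columns, BMP6 left of vehicle), shown as the difference from the gene's mean over the 6 arrays, with red for higher and blue for lower. The third column of each treatment is mostly red and the first mostly blue, whereas E2f2 has the reverse order.

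The second comparison asked how large the differences between replicate numbers were beside the treatment difference. Each number holds 1 BMP6 and 1 vehicle array, and replicate number was tested in an additive model with treatment. In bulk RNA, fewer cells of a type and less RNA per cell cannot be told apart. Replicate 3 had the highest mean of the 3 numbers in 41 of 43 replication genes, against 35.3% of all genes. The exceptions were E2f2 and Rfc5. That share was not taken for the genes at or above the median level, where all 43 members lie. Of those genes, 60.7% were higher in replicate 3 than in replicate 1, and 6621 of 10082 higher than in replicate 2. Replicate 1 was the lowest for 27 members and replicate 2 for 14.

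The difference of replicate 3 minus replicate 1 was positive for 41 of 43 members, where 46% of all genes and 60.7% of the genes at or above the median level were positive. Its median over members was 0.19 on the log2 scale, with a range of -0.35 (E2f2) to 0.42 (Tk1). At an unadjusted p under 0.05, 18 members were higher (6.18% of all genes) and 1 was lower (10.2% of all genes). Of the 10082 genes at or above the median level, 962 were higher and 657 lower at that p. Both arrays of replicate 3 lay above both of replicate 1 in 34 of 43 genes, where 23.3% of all genes and 3694 of those 10082 did. The opposite separation was seen in 1, E2f2 (27.2% of all genes, 1938 of those 10082). Replicate 3 also exceeded replicate 2 in 41 of 43 genes (48.7% of all genes, 6621 of those 10082), with a median of 0.13. At an unadjusted p under 0.05, 11 members were higher there (4.59% of all genes, 673 of those 10082). Replicate 2 exceeded replicate 1 in 27 of 43 (46.3% of all genes, 4597 of those 10082), with a median of 0.06. At that p, 3 were higher (3.09% of all genes, 285 of those 10082).

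No single member passed the adjusted F test of replicate number, which called 0.392% of all genes (79 genes), and the smallest adjusted p among members was 0.181 for Tk1. Without adjustment 15 of 43 members had an F p under 0.05, where 14% of all genes and 12.5% of the genes at or above the median level did. The adjusted call depended on the variance model and on which genes entered the fit. Fitting only the genes at or above the median level changed both the shared variance estimate and the number of genes adjusted over (10082). These changes were not separated. When only genes at or above the median level entered the fit, 9 members were called against 6.58% of those genes: Mcm2, Mcm3, Pola1, Prim1, Pcna, Tk1, Chaf1b, E2f2 and Ccne2. With a variance trend on level, 3 were called, Mcm3, Pcna and Tk1, against 1.52% of all genes. Neither was any member called by the planned pairwise contrasts of numbers, which called 0.531% of all genes for replicate 3 minus 1, 0.0645% for 3 minus 2 and 0.134% for 2 minus 1. In the contrast of replicate 3 minus 1, however, 14 members were called when only genes at or above the median level were fitted (7.66% of those genes) and 13 with the variance trend (2.67% of all genes). All of them were higher in replicate 3 except E2f2, and they included Mcm2, Mcm3, Mcm6, Pcna, Rrm2, Tk1, Chaf1b and Ccne2 in both fits.

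By role, an unadjusted F p under 0.05 was reached by 3 of 6 MCM subunits (Mcm2, Mcm3 and Mcm6), 2 of 4 polymerase and primase genes (Pola1 and Prim1), 2 of 5 clamp genes (Pcna and Rfc4), 3 of 5 nucleotide supply genes (Rrm1, Rrm2 and Tk1), 1 of 2 lagging-strand genes (Lig1), 1 of 2 single-strand binding genes (Rpa1), 1 of 4 chromatin genes (Chaf1b) and 2 of 5 S phase entry genes (E2f2 and Ccne2). None of the 4 licensing and none of the 6 helicase activation genes reached it. The difference between roles was not tested.

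Tk1 had the smallest F p, at 0.00294, with replicate 3 above replicate 1 by 0.42 ± 0.09 (SE, log2). Pcna followed with an F p of 0.0064 and a difference of 0.35, then E2f2 with 0.00872 and a difference of -0.35, the only one in the negative direction. Mcm3 had an F p of 0.00912 and a difference of 0.35 ± 0.09. For Ccne2 the F p was 0.0109 and the difference 0.41 ± 0.11, and for Chaf1b 0.0128 and 0.33. These are the genes whose arrays are given above, and in each but E2f2 the third array of a treatment was higher than its first by more than any shift between treatments of the same number, with the exception of the second pair of Ccne2. The second probe sets of Tk1 and Pcna gave smaller differences, 0.15 and 0.13, than the brighter ones used here, and that of Slbp gave 0.12 against 0.19.

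The difference between replicates 3 and 1 was larger in size than the difference between treatments in 39 of 43 members (90.7%). It was so in 68.4% of all genes and 71.7% of the genes at or above the median level. Replicate number accounted for a median of 77.2% of a member's sum of squares and treatment for 4.82%. These medians were 50.6% and 9.90% over all genes, and 55.4% and 9.57% over the genes at or above the median level. Replicate number has 3 levels of 2 arrays and treatment 2 levels of 3 arrays. Both measures therefore lean towards replicate number even without an effect, and only the comparison with other genes is informative. Whether the treatment difference depends on replicate number could not be tested, since 1 array per treatment and number leaves no residual.

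**Figure D3:**
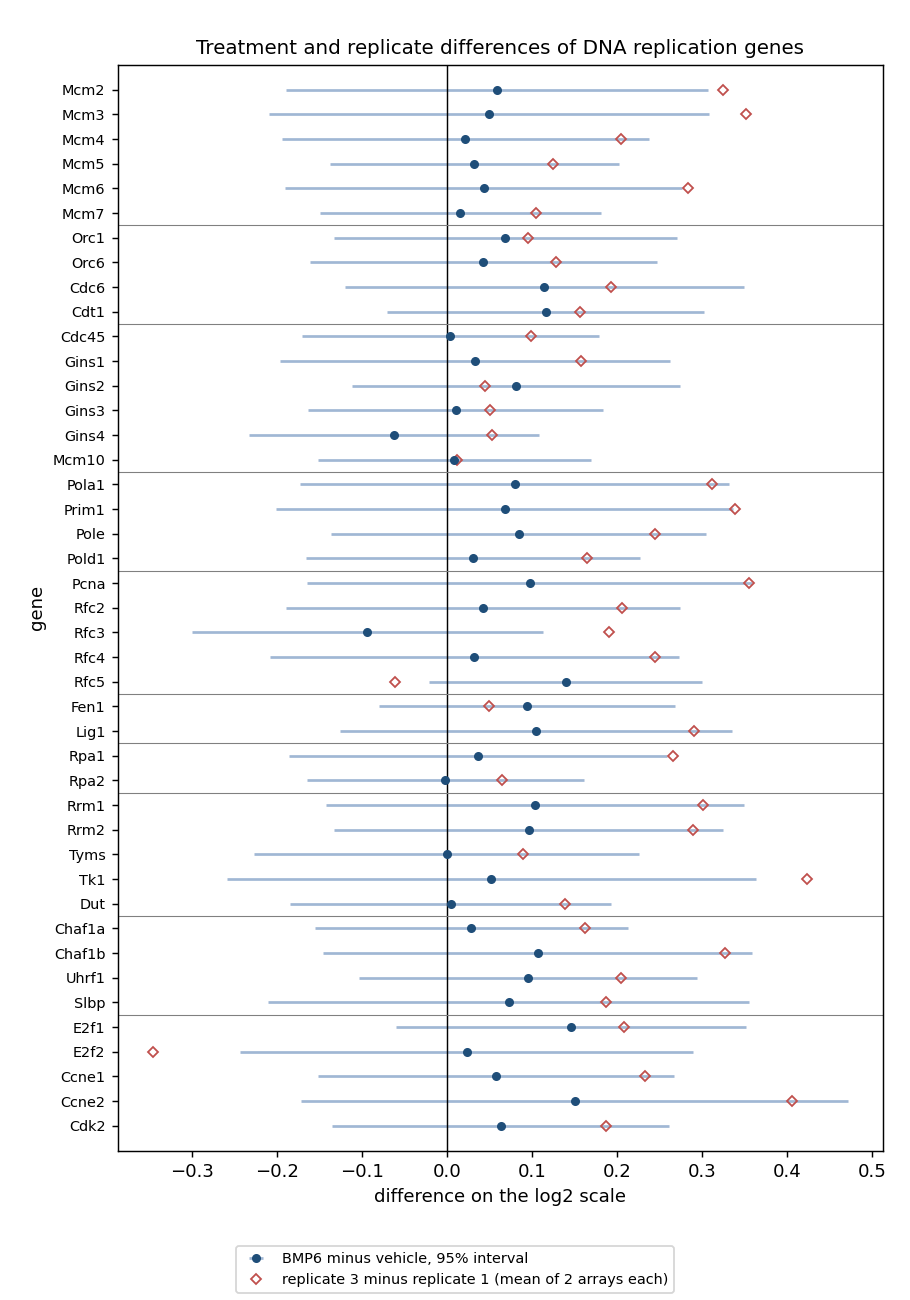
Differences on the log2 scale (horizontal axis) for each of the 43 genes (vertical axis, grouped by role): filled circles show BMP6 minus vehicle with the 95% interval, open diamonds replicate 3 minus replicate 1. Every interval crosses 0, and the diamonds lie to the right of 0 except for E2f2 at -0.35 and Rfc5 at -0.06.

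Genes with and without the E2F letters in the promoter window had similar medians on both measures. The 15 with a match had medians of 0.05 for BMP6 minus vehicle and 0.19 for replicate 3 minus 1, against 0.06 and 0.21 for the 21 without. Mcm6 and Mcm5, which share the 12-base run, differed by 0.28 and 0.13 between replicates 3 and 1, and Cdc6 by 0.19.

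The other genes of the replication pathway were also mostly higher in replicate 3. Of 46 further replication factors, 42 were higher in replicate 3 than in replicate 1 (median 0.17), against 60.7% of the genes at or above the median level. An unadjusted F p under 0.05 was found for 10 of the 46, against 12.5% of those genes, and 0 were called. The lowest F p were those of Pold3, a polymerase delta subunit (0.00512, difference 0.30), and Hells, a chromatin remodeller (0.00556, difference 0.32). With BMP6, 32 of 46 were above vehicle (median 0.03), against 56.4% of the genes at or above the median level, and 0 were called. The lowest p there belonged to Cdc7, the kinase that activates the helicase (difference 0.17 ± 0.08), and Rrm2b, a p53-inducible reductase subunit (-0.16 ± 0.09). Mitosis genes gave 34 of 39 higher in replicate 3 than 1 (median 0.15), led by Bub1 (0.33) and Mad2l1 (0.30) of the spindle checkpoint. With BMP6, 26 of 39 were above vehicle. An unadjusted F p under 0.05 was found for 5 of these 39, a share of 12.8%. None was called in either comparison, and the lowest p for BMP6 were those of Cdca3 (-0.13 ± 0.08) and Ttk (0.13 ± 0.08). Mki67, the gene of the proliferation antigen Ki-67, read 10.12, 10.33 and 10.27 with BMP6, against 9.98, 10.11 and 10.33 with vehicle, and Ccna2, cyclin A, read 10.41, 10.55 and 10.52, against 10.44, 10.47 and 10.59.

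Of 31 regulators of the RB and E2F pathway, 21 were higher in replicate 3 than 1 (median 0.05) and 16 were above vehicle with BMP6 (median 0.00), with 0 called in either comparison. Among the genes at or above the median level these shares were 60.7% and 56.4%. The E2F-regulated factor Mybl2 (F p 0.0089, difference 0.36) and Cdkn2a (F p 0.00982, difference 0.06) had the lowest F p, and Cdk6 (0.17 ± 0.08) and Cdkn1a (-0.14 ± 0.10) the lowest p for BMP6. Cdkn1a, the inhibitor p21, read 10.91, 11.03 and 10.71 with BMP6, against 11.15, 10.93 and 10.99 with vehicle. Cdkn1c, the inhibitor p57, read 6.77, 6.77 and 6.40, against 6.82, 6.45 and 6.42, and was lower in replicate 3 than in replicate 1 by a log2 difference of -0.38 with an F p of 0.0178. Among 22 p53 targets 10 were above vehicle and 12 higher in replicate 3 than 1, with 0 called. The lowest p there were those of Mdm2 (0.16 ± 0.08) and Fas (0.15 ± 0.08) for BMP6, and of Pmaip1 (F p 0.0116) and Perp (F p 0.0266) for replicate number.

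Differentiation genes were mostly lower in replicate 3. Of 32 myogenic differentiation genes, 17 were called by the F test (0.392% of all genes). Lower in replicate 3 than in replicate 1 were 28 (54% of all genes), with a median difference of -0.62. In that contrast 18 were called lower, against 0.451% of all genes. Actc1, cardiac actin, read 10.42, 9.30 and 7.69 with BMP6, against 10.39, 9.21 and 7.63 with vehicle, and fell by 2.75 on the log2 scale in replicate 3 relative to replicate 1. The embryonic myosin Myh3 (-2.92) and the slow troponin Tnni1 (-2.09) were the next by F p. Myog, the transcription factor of early differentiation, read 8.65, 8.33 and 6.85 with BMP6, against 8.75, 7.94 and 7.03 with vehicle, a difference between replicates 3 and 1 of -1.76 ± 0.13. BMP6 and vehicle stayed close within each number, with 0 of 32 called and 19 of 32 above vehicle, and the lowest p were those of Ttn (0.27 ± 0.22) and Tnnc2 (-0.12 ± 0.10).

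**Figure D4:**
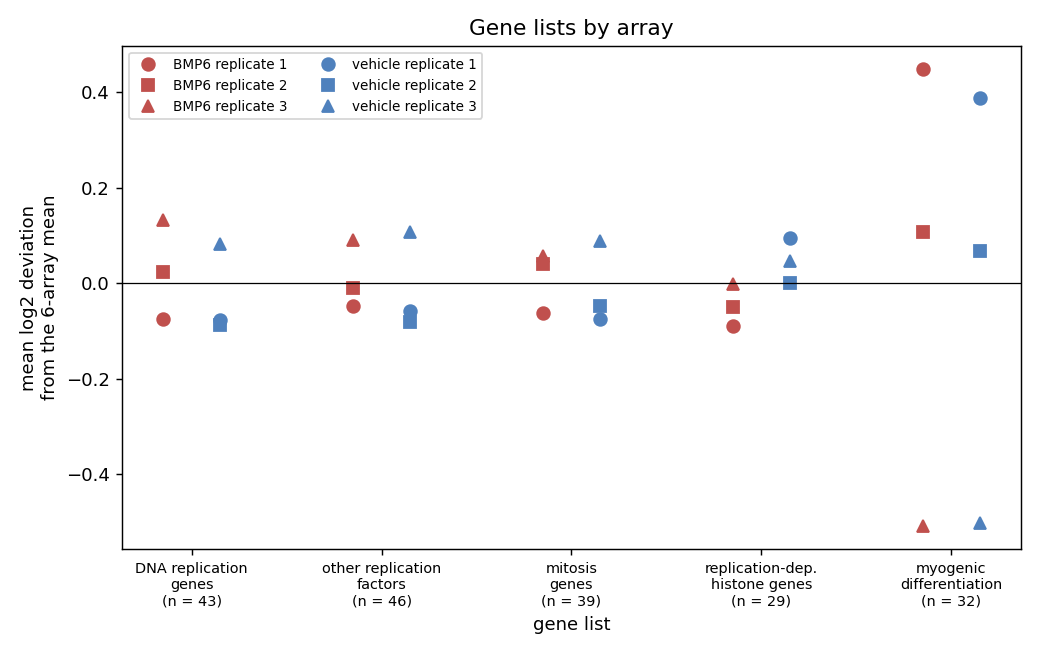
Mean log2 deviation from each gene's 6-array mean (vertical axis) for 5 gene lists (horizontal axis, number of genes given), with 1 symbol per array, BMP6 in red left of vehicle in blue. Replication genes stood at -0.074, 0.023 and 0.133 on BMP6 arrays 1, 2 and 3, against -0.077, -0.087 and 0.082 on the vehicle arrays, and differentiation genes at 0.449, 0.107 and -0.509, against 0.388, 0.067 and -0.501.

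**Figure D5:**
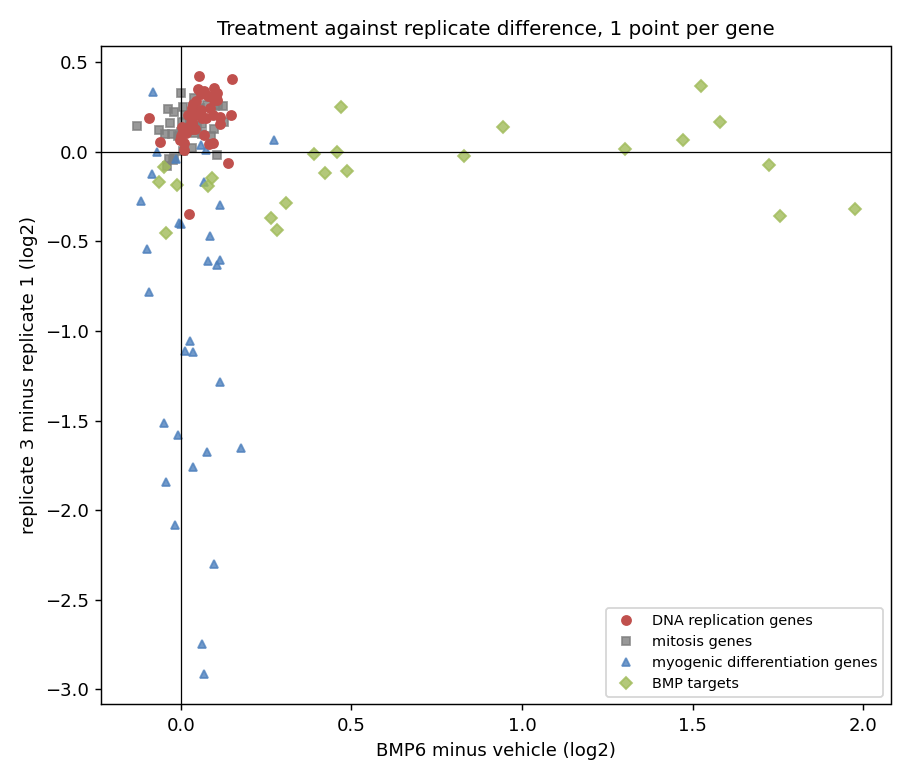
BMP6 minus vehicle (horizontal axis, log2) against replicate 3 minus replicate 1 (vertical axis, log2), 1 point per gene for 4 lists. Replication genes lie close together above 0 on the vertical axis, apart from E2f2 and Rfc5, differentiation genes spread down to -2.92 and BMP targets spread to the right.

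Markers of other cells also moved between replicate numbers. Over all genes, 46% were higher in replicate 3 than 1, 14% had an unadjusted F p under 0.05 and 0.392% were called. Of the 12 fibro-adipogenic markers, 8 were higher in replicate 3 than 1 (median 0.07), and the F test called Dcn and Cd34. Dcn, decorin, read 6.09, 6.44 and 7.06 with BMP6, against 6.37, 6.63 and 6.98 with vehicle, whereas Cd34 was lowest in replicate 2. The summed linear level of that list was 1522 and 1514 in replicate 3 (BMP6, vehicle) and 1445 and 1574 in replicate 1. Of the 10 Schwann cell markers, 6 were higher in replicate 3 than 1 and 4 had an unadjusted F p under 0.05, Cdh19 among them (difference 0.49). The summed level of that list was 1273 and 1289 in replicate 3 (BMP6, vehicle), 1165 and 1157 in replicate 2 and 1069 and 1098 in replicate 1. This sum, like the replication genes, was thus higher in replicate 3 than in replicate 1. The list's median difference between these replicates was 0.04. Its mean log2 deviation was -0.085, -0.007 and 0.015 on BMP6 arrays 1, 2 and 3, and -0.062, 0.070 and 0.069 on the vehicle arrays. On vehicle array 2 the replication genes stood at -0.087. Endothelial markers were higher in replicate 3 for 3 of 10 genes, immune markers for 1 of 12 and pericyte markers for 2 of 10, with none called by the F test. Among the muscle stem cell markers 7 of 12 were higher in replicate 3 and Myf5 was called (difference 0.39). The lowest F p in the lists with no call were those of Laptm5 and Tyrobp (immune), Acta2 and Kcnj8 (pericyte), and Esam and Tek (endothelial), from 0.000363 for Laptm5 to 0.166 for Tek. For BMP6 none of these marker lists held a called gene. The lowest p there were those of Clec3b and Smoc2, Pecam1 and Tek, Cd3e and Cd79a, Cspg4 and Pdgfrb, Foxd3 and Mag, and Myod1 and Myf5, with differences of -0.34 (Myf5) to 0.18 (Cspg4). The part of these markers in the replicate differences of the replication genes was not tested.

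Histone genes, whose mRNAs accumulate in S phase, are described apart. Of 29 replication-dependent histone genes, 15 were higher in replicate 3 than 1 (46% of all genes), with a median of 0.00. With BMP6, 26 of 29 were below vehicle (50.7% of all genes), with a median difference of -0.08. Below within all 3 numbers were 15 (12.3% of all genes), and 5 had groups that did not overlap (3.86% of all genes). The summed linear level was 53506, 47858 and 50479 on vehicle arrays 1, 2 and 3, against 47035 to 48541 on the BMP6 arrays. The shift was largest in number 1. Of the 29 genes, 1, 10 and 7 were above vehicle within numbers 1, 2 and 3, with median differences of -0.19, -0.03 and -0.05. None was called, and 1 had an unadjusted p under 0.05: H2bc21 read 5.78, 5.84 and 5.51 with BMP6, against 5.97, 6.15 and 5.91 with vehicle, a difference of -0.30 ± 0.10. H4c16 followed at -0.18 ± 0.08. Between replicate numbers the lowest F p were those of H2ac6 (0.00451) and H3c15 (0.011). Many histone genes are near-identical in sequence, so their probe sets may read shared transcripts and the 29 genes are not separate observations.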

How the data were processed

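Muscle stem cells on 6 arrays, 3 with BMP6 and 3 with vehicle, were compared. Per the submitters' processing notes the authors used RMA in the oligo package (versions not given), and the deposited values are log2 levels for 34760 probe sets, of which 21893 carry a symbol, from 1 array per sample. Array type and genome build: not given in the sources used here. A second deposited table holds the same log2 values.

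For each of 20163 symbols the probe set with the highest mean was kept. limma 3.58.1 in R 4.3.3 tested BMP6 against vehicle without a block, and replicate number by an F test beside treatment. Both used empirical Bayes moderation, were two-sided and were adjusted by Benjamini-Hochberg over all 20163 genes. Genes with an adjusted p under 0.05 count as called. No low-level filter was applied, and the number of arrays limits precision. The scripts were tested on simulated data.

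Members and lists were chosen with earlier results of these data known, so list counts are descriptions. All members were accounted for by role. Values per array are given for the MCM subunits, Pcna, Cdc6, E2f1, Ccne1, Ccne2, Slbp, Rrm2, Uhrf1, the 4 members with the highest and the 4 with the lowest difference, and the 6 with the smallest F p. Of each other list the leading genes by p are named, up to 3 called or 2 uncalled, for BMP6 and for replicate number. 1 marker gene is not reported here. Alternatives covered blocks, left-out arrays and pairs, scaling, variance models and probe set choice.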

Additional observations from a re-analysis of the deposited data

How the results depend on the processing

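No replication gene was called for BMP6 under any of 20 alternatives. 1 member reached an unadjusted p under 0.05 each without the third vehicle array, with a variance trend and without the third pair. The count of 40 members above vehicle became 27 with mouse number as a block, 28 without the second pair, 34 without the third pair, 37 with array weights, and 36 and 41 with arrays centred on the brighter genes and on all genes. Leaving out 1 array gave 21 to 40, and medians of -3.17e-05 to 0.118. The alternatives on brighter-gene centring and on left-out pairs were chosen after seeing the data.

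The labels did not settle the pairing by number. Array names share a code within each number, and the source names give the same mouse in numbers 1 and 2 but not in number 3. Deviations from the group means correlated across genes by 0.315, 0.0475 and 0.434 for numbers 1, 2 and 3. Between BMP6 and vehicle arrays of different numbers these correlations ran from -0.439 to 0.179. The levels of vehicle arrays 2 and 3 correlated by 0.9953, against 0.9957 for 1 with 2 and 0.9947 for 1 with 3. The standard error was smaller with the replicate block in 39 of 43 members. With the replicate block 0 members were called and the smallest adjusted p among members was 0.910, while 29 genes were called in all, against 17 without the block. The other settings called 32 (random block), 30 (only genes at or above the median level), 26 (trend, and median centring), 3 (all probe sets) and 6 (without the second pair), and 7 to 15 with 1 array left out.

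For differences between replicate numbers, 9 members were called with genes at or above the median level and 3 with the trend. The prior degrees of freedom were 20.3 and 14.2 in these fits, against 7.75, and the first of them also adjusted over only 10082 genes. The median of replicate 3 minus 1 was 0.248 with median centring and 0.149 to 0.240 with 1 array left out, and 36 to 41 members were higher in replicate 3 than 1. Replicate 3 minus 1 called 14 members with genes at or above the median level, 13 with the trend and 1 with median centring, and replicate 2 minus 1 called 1 with genes at or above the median level. The 15 members with an F p under 0.05 became 3 (mouse number), 23 (trend) and 8 (all probe sets), and 3 to 20 with 1 array left out. All called genes numbered 0 (mouse number, all probe sets), 663 (brighter genes), 307 (trend), 139 (median centring), 43 (without treatment) and 17 (brighter-gene centring), and 21 to 95 with 1 array left out.

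Among 460 values of BMP6 minus vehicle for 23 named members, 38 changed sign, in 14 members. Many of the 460 could not change sign. Settings that alter only the replicate block, the variance model or the set of genes fitted leave the estimate as it was. So does the second table, which holds the same values. The 460 are therefore no measure of how stable the signs are. With mouse number these were Mcm4 (-0.034), Mcm6 (-0.017) and Tyms (-0.10). Without the second pair they were Mcm4 (-0.017), Mcm7 (-0.0028), Slbp (-0.084) and E2f2 (-0.024), and without the third pair Tyms (-0.16). Array weights turned Tyms (-0.035) and E2f2 (-0.019), brighter-gene centring Tyms (-0.0092) and median centring Rpa2 (0.012). With 1 array left out the ranges were -0.018 to 0.16 for Mcm2, -0.036 to 0.15 for Mcm3, -0.042 to 0.10 for Mcm4, -0.010 to 0.062 for Mcm5, -0.039 to 0.13 for Mcm6, -0.011 to 0.049 for Mcm7, -0.0074 to 0.19 for Pcna, -0.0094 to 0.14 for Ccne1, -0.074 to 0.18 for Slbp, -0.030 to 0.024 for Rpa2, -0.10 to 0.065 for Tyms, -0.053 to 0.21 for Tk1, -0.058 to 0.15 for E2f2 and -3.17e-05 to 0.20 for Chaf1b. For replicate 3 minus 1 they were -0.036 to 0.14 for Gins4 and -0.15 to 0.33 for Tyms. The causes were not tested. Histone genes below vehicle numbered 21 to 29 with 1 array left out.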
